A study of Mus musculus with 9 samples.

Results

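Albumin, transthyretin and 8 other plasma proteins that hepatocytes secrete at rest are described here in mouse liver after treatment with an agonist CD40 antibody. The members are Alb, Ttr, Rbp4, Ahsg, Gc, Afm, Serpina6, Fetub, Mup3 and Mup20. They were chosen by name from a list of constitutive secreted proteins of the hepatocyte, and all 10 had a value in every mouse among the 24326 genes used. Livers were taken 48 hours after treatment from 9 WT mice of the C57BL/6 strain. The 3 mice of the anti-CD40 group (mice 2, 5 and 9) received the CD40 agonist FGK45, and the 6 control mice (mice 3, 4, 7, 8, 11 and 12) received PBS. The labels give no age or sex for single mice, and the study used sex-matched young adult mice unless stated otherwise. Each library held RNA of the whole liver of 1 mouse, so fewer hepatocytes and less RNA per hepatocyte cannot be told apart.

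During an acute phase response the liver raises some secreted proteins and lowers others. Proteins that fall are called negative acute phase proteins, with albumin and transthyretin as the usual examples, and serum albumin is read in the clinic partly for this reason. Most of the members are carriers: they hold fatty acids, retinol, thyroid hormone, vitamin D, vitamin E or glucocorticoid in plasma and so set how much of each is free. Their genes are kept active in hepatocytes by factors such as HNF4, C/EBP and the PAR bZIP proteins, and the major urinary proteins depend in addition on growth hormone acting through STAT5.

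The values are FPKM, by definition a read count divided by transcript length and by the reads mapped, before any scaling between mice. The libraries were read at the 3′ end of each transcript. Because FPKM divides by a length that 3′ reads do not depend on, the level of a gene is compared between mice and not with that of another gene, and sums or shares over genes, where given, weigh each gene by this length-divided value. Summed FPKM ran from 896032 to 994646 per mouse, and 14684 to 15545 genes lay above the floor of 0.01. Read totals are not in the table, so the depth behind a value is unknown. Differences are log2(FPKM + 0.1), anti-CD40 minus control, tested with limma over the 13807 genes whose FPKM averaged 0.1 or more, and called at an adjusted p under 0.05. The labelled tissue held its defining transcripts, since all 12 hepatocyte enzymes on a marker list were measured in both groups.

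Promoter sequence is shown for the 3 members of the albumin family and for Mup3, so that the letters upstream of Alb can be set beside those of its relatives and of an unrelated member that fell further. RefSeq promoters of build GRCm38.p6 were used for 7 of the 10 members. Those of Ttr, Serpina6 and Mup20 were not searched, so the motif counts do not cover these 3 members. The 250 bases before the start site were searched on both strands for a loose NF-kB pattern (GGG and CC with 5 free bases between them) and for TTGCNNAA (C/EBP), TTATGNAA (the D-site of PAR bZIP factors) and TTCNNNGAA (STAT), where the C/EBP and D-site letters can overlap. Alb (chr5:90460620-90460869, plus strand), Afm (chr5:90518699-90518948, plus strand) and Gc (chr5:89457899-89458148, minus strand) belong to the albumin family and lie on the same chromosome. Afm and Mup3 (chr4:62087318-62087567, minus strand) held none of these 4 motifs. Each sequence runs 5′ to 3′ and ends at the base before the start site, with matched letters in capitals.
Alb: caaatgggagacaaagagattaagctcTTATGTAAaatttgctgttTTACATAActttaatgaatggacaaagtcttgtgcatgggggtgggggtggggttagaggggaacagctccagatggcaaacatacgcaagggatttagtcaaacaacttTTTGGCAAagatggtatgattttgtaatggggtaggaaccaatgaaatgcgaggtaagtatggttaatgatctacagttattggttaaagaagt
Afm: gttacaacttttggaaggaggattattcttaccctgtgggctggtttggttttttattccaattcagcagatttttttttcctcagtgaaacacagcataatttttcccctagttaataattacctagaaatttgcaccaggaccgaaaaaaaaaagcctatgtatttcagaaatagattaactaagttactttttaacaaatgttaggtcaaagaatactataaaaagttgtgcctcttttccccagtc
Gc: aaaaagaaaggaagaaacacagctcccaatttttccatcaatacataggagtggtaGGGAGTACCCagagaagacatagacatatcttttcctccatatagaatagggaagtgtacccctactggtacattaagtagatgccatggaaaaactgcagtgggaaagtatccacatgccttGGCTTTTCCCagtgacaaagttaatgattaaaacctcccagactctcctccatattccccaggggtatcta
Mup3: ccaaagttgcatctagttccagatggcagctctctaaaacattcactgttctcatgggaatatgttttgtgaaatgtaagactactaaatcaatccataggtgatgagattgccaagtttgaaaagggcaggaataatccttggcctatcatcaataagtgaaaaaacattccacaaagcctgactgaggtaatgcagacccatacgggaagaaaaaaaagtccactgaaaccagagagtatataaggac

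In Alb the D-site letters stood at -223 to -216 and again, on the other strand, at -204 to -197, and the C/EBP letters at -94 to -87. Gc held the NF-kB letters as GGGAGTACCC at -194 to -185 and as GGCTTTTCCC at -71 to -62. Counted over the 7 members, C/EBP letters were present in 3 (Alb, Rbp4 and Ahsg), D-site letters in 2 (Alb and Rbp4), NF-kB letters in 3 (Rbp4, Gc and Fetub) and STAT letters in 0. In Rbp4 a single stretch, TTATGCAA at -128 to -121, matched both the C/EBP and the D-site letters. Rbp4 and Fetub each had a further promoter. Of the 9 member promoters searched, 3 held the C/EBP letters, 2 the D-site letters, 0 the STAT letters and 4 the NF-kB letters. Among 32536 promoters of the same length, the C/EBP letters were found in 9.57%, the D-site letters in 3.07%, the STAT letters in 7.04% and the NF-kB letters in 46.0%. A match describes letters and is not a measured site, and its absence says only that those letters are not in this window.

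Treatment with anti-CD40 lowered 9 of the 10 members and raised 0, with Mup20 not called. Over all 13807 genes tested, 21.7% were called lower, 23.5% higher and 45.1% in either direction. In 9 members every anti-CD40 mouse lay below every control mouse, an arrangement found in 19.6% of all genes tested. A call with at least a 2-fold fall was made in 7 members, against 9.08% of all genes. The median log2 difference was -1.68 over the members and 0.01 over all genes tested. Among themselves the members differed widely, from Serpina6, at 4.24% of its control mean, to Mup20, at 78.6%. These counts describe a list that was assembled with earlier results of these mice known.

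**Figure D1:**
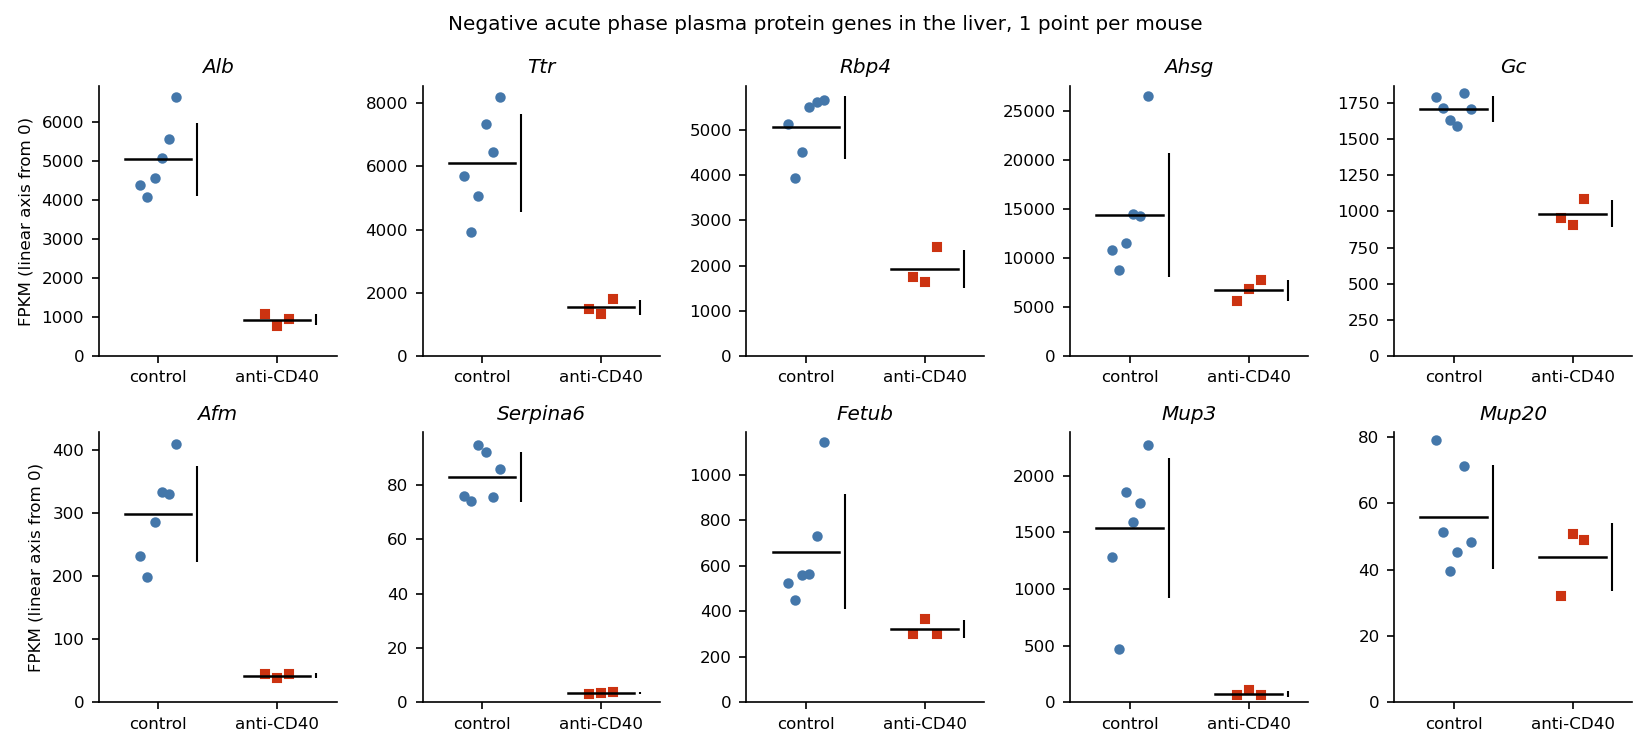
FPKM of the 10 members on linear axes from 0, with 1 point per mouse (6 control, 3 anti-CD40), a horizontal line at the group mean and a vertical bar of 1 SD on each side. Every anti-CD40 mouse lies below every control mouse in each panel except that of Mup20, and control mouse 12 stands high for Ahsg and Fetub.

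Alb (ENSMUSG00000029368, chr5:90460889-90476603, plus strand, mm10) encodes albumin, the main protein of plasma and its carrier of fatty acids. Anti-CD40 mice 2, 5 and 9 had 1075, 774 and 949 FPKM, while the controls ran from 4063 through a median of 4808 to 6626. The groups were far apart, with the highest anti-CD40 mouse well under the lowest control mouse. The mean of 933 ± 151 (SD, n = 3) was 18.5% of the control mean of 5040 ± 937 (SD, n = 6). On the log2 scale the difference was -2.43 (SE 0.18, 95% interval -2.82 to -2.04, limma adjusted p = 3.62e-06), the 168th lowest of the 13807 genes.

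Afm (ENSMUSG00000029369, chr5:90518949-90553544, plus strand), in the same gene cluster as Alb, encodes afamin, which binds vitamin E. It was measured at 44.6, 38.2 and 45.0 FPKM in anti-CD40 mice 2, 5 and 9, against 199, 308 and 409 as the lowest, median and highest of the control mice. The anti-CD40 mice were nearly equal and sat below all control mice. Means of 42.6 ± 3.84 (SD, n = 3) and 298 ± 76.2 (SD, n = 6) gave a level of 14.3% of control and a log2 difference of -2.77 (SE 0.21, 95% interval -3.23 to -2.30, limma adjusted p = 4.53e-06).

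Gc (ENSMUSG00000035540, chr5:89417511-89457898, minus strand) encodes the vitamin D binding protein, the remaining member of the albumin family considered. It read 955, 905 and 1088 FPKM in anti-CD40 mice 2, 5 and 9, with 1593, 1710 and 1821 at the lowest, median and highest control mouse. The control mice were unusually close together, with a coefficient of variation of 5.20%, the lowest of any member. The anti-CD40 mean of 983 ± 94.4 (SD, n = 3) was 57.5% of the control mean of 1710 ± 88.8 (SD, n = 6), a log2 difference of -0.80 (SE 0.11, 95% interval -1.04 to -0.56, limma adjusted p = 1.80e-04). Gc therefore had the smallest fall of the 9 members called, and its size depended on scaling: it was -0.34 after quantile normalization and -0.43 when the serum amyloid A genes (Saa1, Saa2 and Saa3) were removed with rescaling of each mouse, with the call kept in both.

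Ttr (ENSMUSG00000061808, chr18:20665250-20674326, plus strand) encodes transthyretin, which carries thyroxine and, bound to retinol-binding protein, keeps retinol in plasma. It stood at 1484, 1335 and 1795 FPKM in anti-CD40 mice 2, 5 and 9, while the controls spanned 3925 to 8204 around a median of 6071. No anti-CD40 mouse reached the lowest control mouse, mouse 4. The group means were 1538 ± 235 (SD, n = 3) and 6113 ± 1551 (SD, n = 6), which put Ttr at 25.2% of control, with a log2 difference of -1.96 (SE 0.22, 95% interval -2.46 to -1.46, limma adjusted p = 6.32e-05).

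Rbp4 (ENSMUSG00000024990, chr19:38116620-38125321, minus strand) encodes that retinol-binding protein. Anti-CD40 mice 2, 5 and 9 had 1746, 1633 and 2410 FPKM, and the control mice ranged from 3928 to 5656 around a median of 5322. Mouse 9 was the highest of the anti-CD40 group for Rbp4 as it was for Ttr, and the groups did not overlap. With means of 1930 ± 420 (SD, n = 3) and 5059 ± 701 (SD, n = 6), Rbp4 was at 38.1% of control and differed by -1.40 on the log2 scale (SE 0.17, 95% interval -1.78 to -1.02, limma adjusted p = 1.01e-04).

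Serpina6 (ENSMUSG00000060807, chr12:103646632-103657071, minus strand) encodes corticosteroid-binding globulin, the plasma carrier of glucocorticoid. With 3.16, 3.47 and 3.93 FPKM, anti-CD40 mice 2, 5 and 9 were far under the controls, at 74.0, 81.0 and 94.7 at the lowest, median and highest control mouse. Both groups were tight and did not overlap. The control mean of 83.1 ± 9.14 (SD, n = 6) was 23.6 times the anti-CD40 mean of 3.52 ± 0.390 (SD, n = 3). The log2 difference of -4.52 (SE 0.12, 95% interval -4.79 to -4.25, limma adjusted p = 1.31e-08) was the 25th lowest of all genes tested and the lowest of the members.

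Ahsg (ENSMUSG00000022868) encodes fetuin-A, an inhibitor of ectopic mineral formation. Its levels were 5590, 6806 and 7724 FPKM in anti-CD40 mice 2, 5 and 9, and 8774, 12913 and 26548 at the lowest, median and highest control mouse. The groups did not overlap, but control mouse 12 stood apart from the other control mice at the top of the range. The means of 6706 ± 1070 (SD, n = 3) and 14414 ± 6331 (SD, n = 6) put Ahsg at 46.5% of control, with a log2 difference of -1.02 (SE 0.30, 95% interval -1.69 to -0.35, limma adjusted p = 0.0189). That call was lost when anti-CD40 mouse 2 was left out (-0.90, adjusted p = 0.0846), when anti-CD40 mouse 5 was left out (-1.04, adjusted p = 0.0520), when the Saa genes were left out with rescaling (-0.65, adjusted p = 0.0723) and with no filter on low genes (adjusted p = 0.322). In the deposited table Ahsg shares its locus, chr16:22857845-22899451, with 2 other genes, Dnajb11 and Gm30505.

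Fetub (ENSMUSG00000022871, chr16:22918382-22939768, plus strand), next to Ahsg on the chromosome, encodes fetuin-B, an inhibitor of the protease ovastacin. Values of 300.3, 366 and 298 FPKM in anti-CD40 mice 2, 5 and 9 compared with a lowest, median and highest control value of 452, 563 and 1143. As for Ahsg, control mouse 12 was the highest and the groups did not overlap. The mean fell from 663 ± 253 (SD, n = 6) to 322 ± 38.4 (SD, n = 3), which is 48.5% of control and a log2 difference of -0.98 (SE 0.26, 95% interval -1.55 to -0.41, limma adjusted p = 0.0102). It was not called after quantile normalization (-0.53, adjusted p = 0.104) or with the Saa genes left out and rescaling (-0.61, adjusted p = 0.0525).

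Mup3 (ENSMUSG00000066154, chr4:62083476-62087312, minus strand) and Mup20 (ENSMUSG00000078672, chr4:62050235-62054117, minus strand) encode major urinary proteins, small lipocalins that the liver secretes and that reach urine with bound pheromones. Mup3 was at 62.1, 106 and 61.7 FPKM in anti-CD40 mice 2, 5 and 9, and at 469, 1677 and 2271 at the lowest, median and highest control mouse. Control mouse 4 was far below the other control mice, yet above every anti-CD40 mouse. The anti-CD40 mean of 76.5 ± 25.2 (SD, n = 3) was 4.97% of the control mean of 1539 ± 616 (SD, n = 6), a log2 difference of -4.23 (SE 0.43, 95% interval -5.19 to -3.27, limma adjusted p = 2.99e-05). Mup20, known as darcin for its part in male scent signalling, behaved differently. It read 31.9, 50.7 and 48.9 FPKM in anti-CD40 mice 2, 5 and 9, with 39.5, 49.9 and 78.9 at the lowest, median and highest control mouse. Anti-CD40 mice 5 and 9 fell within the control range, so the groups overlapped. Means of 43.8 ± 10.3 (SD, n = 3) and 55.8 ± 15.6 (SD, n = 6) differed by -0.33 on the log2 scale (SE 0.24, 95% interval -0.86 to 0.19, limma adjusted p = 0.281), a sign that turned to 0.03 with the Saa genes left out and rescaling.

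Exact permutation of the group labels, in 84 ways, gave p = 0.0238 for each of the 9 members called, the smallest two-sided p that this design allows, and p = 0.286 for Mup20. Control mouse 4 was the lowest control for 8 of the 10 members and control mouse 12 the highest for 7, while Gc and Mup20 had other mice at both ends. With control mouse 4 and anti-CD40 mouse 5 both left out, 9 members were still called lower.

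**Figure D2:**
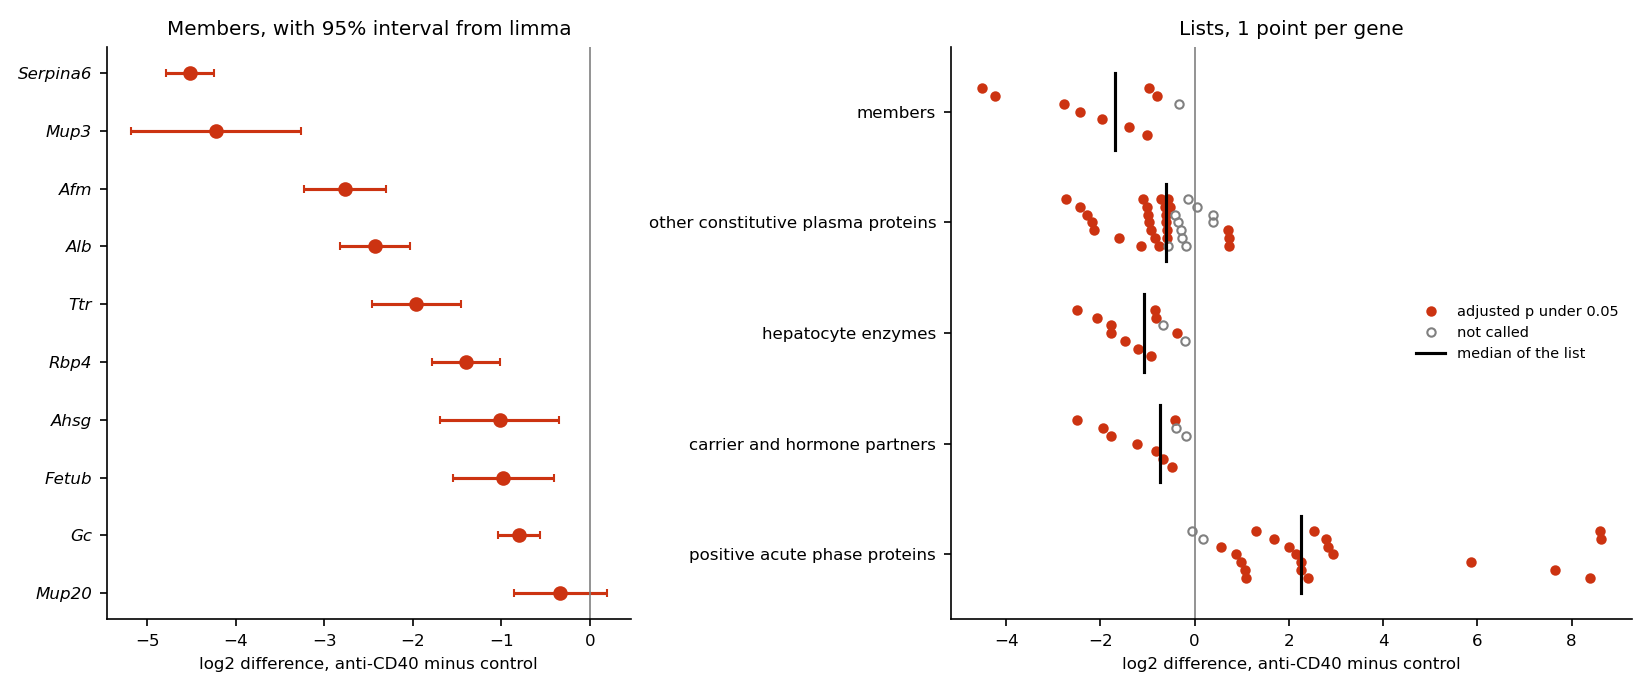
Left, the log2 difference of each member (anti-CD40 minus control) with its 95% interval from limma, ordered from Serpina6 at -4.52 to Mup20 at -0.33, whose interval alone crosses 0. Right, 1 point per tested gene of 5 lists with the list median as a black line, at -1.68 for the members and 2.26 for the positive acute phase proteins.

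Serpina6 and Mup3 thus formed the low end of the order, with intervals that overlapped each other and reached no other member. The intervals of Afm, Alb and Ttr overlapped each other, and that of Ttr also overlapped those of Rbp4, Ahsg and Fetub. Those of Rbp4, Ahsg, Fetub and Gc overlapped each other, and that of Mup20 overlapped those of Ahsg, Fetub and Gc. Whether related members fell unequally was tested within mice, through the log2 ratio of 5 pairs of members, which does not depend on how a library is scaled. Each ratio was compared with the exact permutation test, two-sided, and adjusted over the 5 ratios.

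Within the albumin family, Gc fell less than Alb. The log2 ratio of Gc to Alb was -0.17, 0.23 and 0.20 in anti-CD40 mice 2, 5 and 9, whereas it stayed within -1.96 to -1.25 among the controls, without overlap. Its mean was 0.08 ± 0.22 (SD, n = 3) against -1.54 ± 0.26 (SD, n = 6), a difference of 1.63 (exact permutation p = 0.0238, adjusted p = 0.0397). Afm and Alb, in contrast, were not separated by this test. Their log2 ratio was -4.59, -4.34 and -4.40 in anti-CD40 mice 2, 5 and 9, compared with -4.35 to -3.92 among the controls, so that the groups overlapped, and the difference of -0.34 had an exact permutation p of 0.0476 and an adjusted p of 0.0595.

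Between the partners of the retinol complex, Rbp4 fell less than Ttr. The log2 ratio of Rbp4 to Ttr was 0.23, 0.29 and 0.42 in anti-CD40 mice 2, 5 and 9, above all control mice, which ran from -0.54 to 0.00. The means of 0.32 ± 0.10 (SD, n = 3) and -0.24 ± 0.20 (SD, n = 6) differed by 0.56 (exact permutation p = 0.0238, adjusted p = 0.0397). For the fetuins no such difference was found. Fetub over Ahsg was -4.22, -4.22 and -4.69 in anti-CD40 mice 2, 5 and 9, compared with -4.68 to -4.28 among the controls, a difference of 0.04 (exact permutation p = 0.762, adjusted p = 0.762) that turned negative in some sets with 1 mouse left out and stayed between -0.04 and 0.20.

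The widest gap lay between the major urinary proteins. The log2 ratio of Mup20 to Mup3 was -0.96, -1.06 and -0.34 in anti-CD40 mice 2, 5 and 9 but within -5.55 to -3.19 among the controls, without overlap. Means of -0.78 ± 0.39 (SD, n = 3) and -4.68 ± 0.94 (SD, n = 6) differed by 3.89 (exact permutation p = 0.0238, adjusted p = 0.0397). Mup genes resemble each other in sequence, so the last 400 bases of their annotated transcripts were compared with those of all other genes. Of the 577 distinct stretches of 50 bases in Mup3, 9.36% also occurred in other Mup genes, and of the 351 in Mup20, 28.5% did. In the other 8 members 0% of the stretches were shared. Only identical stretches were counted, whereas the study's alignment allowed mismatched bases, so reads may have been shared more widely. The Mup3 stretches were shared with Mup1, Mup9, Mup10 and Mup12 among others, so the values of these genes may not be separate. Reads from shared stretches could have been counted for another Mup gene, and their part in the values of the Mup genes was not tested.

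**Figure D3:**
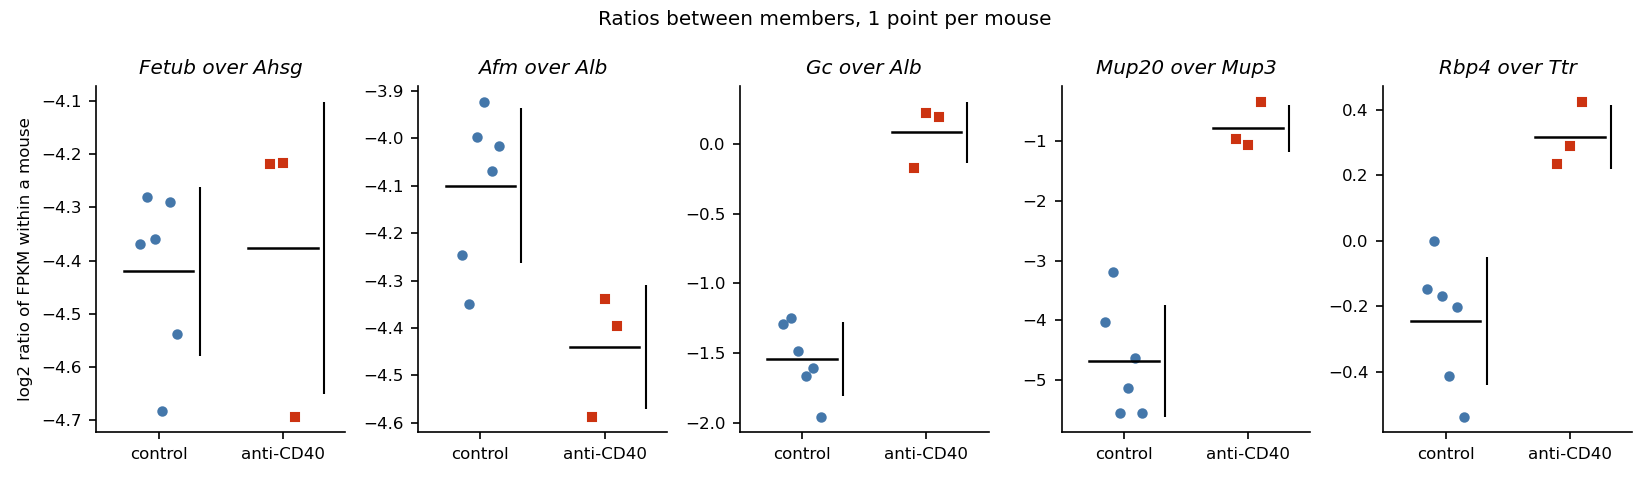
Log2 ratio of FPKM between 2 members within each mouse, with 1 point per mouse, a line at the group mean and a bar of 1 SD on each side. The vertical scale differs between panels, and the groups are apart for Gc over Alb, Mup20 over Mup3 and Rbp4 over Ttr and overlap for Fetub over Ahsg and Afm over Alb.

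Most of the Mup genes tested were lower, as Mup3 was. Of 22 genes listed, 20 had a row in the table and 12 passed the filter on low values, of which 10 were called lower and 0 higher. Mup4, Mup5, Mup6, Mup7, Mup9 and Mup16 averaged under 0.1 FPKM with anti-CD40 and passed only through the control mice. Such genes could hardly be called higher, so the counts are no support for a fall of the family. At a mean FPKM of at least 1, 6 were called lower. Outside the members, 9 of 10 tested Mup genes were lower. Mup12 was at 0.067, 0.213 and 0.152 FPKM in anti-CD40 mice 2, 5 and 9 and at 2.51 to 14.8 among the controls, with no overlap and a log2 difference of -5.24 (SE 0.48, limma adjusted p = 1.46e-05). Mup1 had 0.536, 2.28 and 0.786 FPKM in anti-CD40 mice 2, 5 and 9 and 8.63 to 56.4 among the controls, and it differed by -4.82 (SE 0.57, limma adjusted p = 8.18e-05). Mup9 likewise stood at 0.067, 0.01 and 0.076 FPKM against 1.36 to 4.71 among the controls and was called lower (limma adjusted p = 5.23e-06), but since its anti-CD40 values lie under the 0.1 added to FPKM, no fold is given. For Mup12 too, with 1 value under 0.1, the added 0.1 understates the difference. Control mouse 4 was again the lowest control mouse for these 3 genes.

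At low levels the family reached the floor of the table. Mup5, Mup6 and Mup7 were listed at the floor of 0.01 in all 3 anti-CD40 mice, so no fold is given for them, and their control values ran from 0.364 to 1.18, 0.01 to 0.579 and 0.117 to 0.448 FPKM. Mup4 was not called (-1.17, limma adjusted p = 0.0672), and the control range of 0.01 to 0.433 FPKM took in the anti-CD40 mice. Mup10, Mup16 and Mup21 were called lower with groups that did not overlap, and the differences of -4.05 for Mup10 and -1.97 for Mup16 are likewise shaped by the added 0.1, whereas that of Mup21 was -1.22. A locus was shared with another gene by 5 of the Mup genes, Mup7 and Mup10 among them, and 8 did not pass the filter, of which 3 were at the floor in every mouse. Expression of these genes is known to be higher in males. Here 4 Y-linked genes were listed at the floor in all 9 mice, and Xist was at 2.74 to 3.82 FPKM with anti-CD40 and 2.23 to 2.86 without. This is the pattern of female mice, so the Mup values here are those of females.

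**Figure D4:**
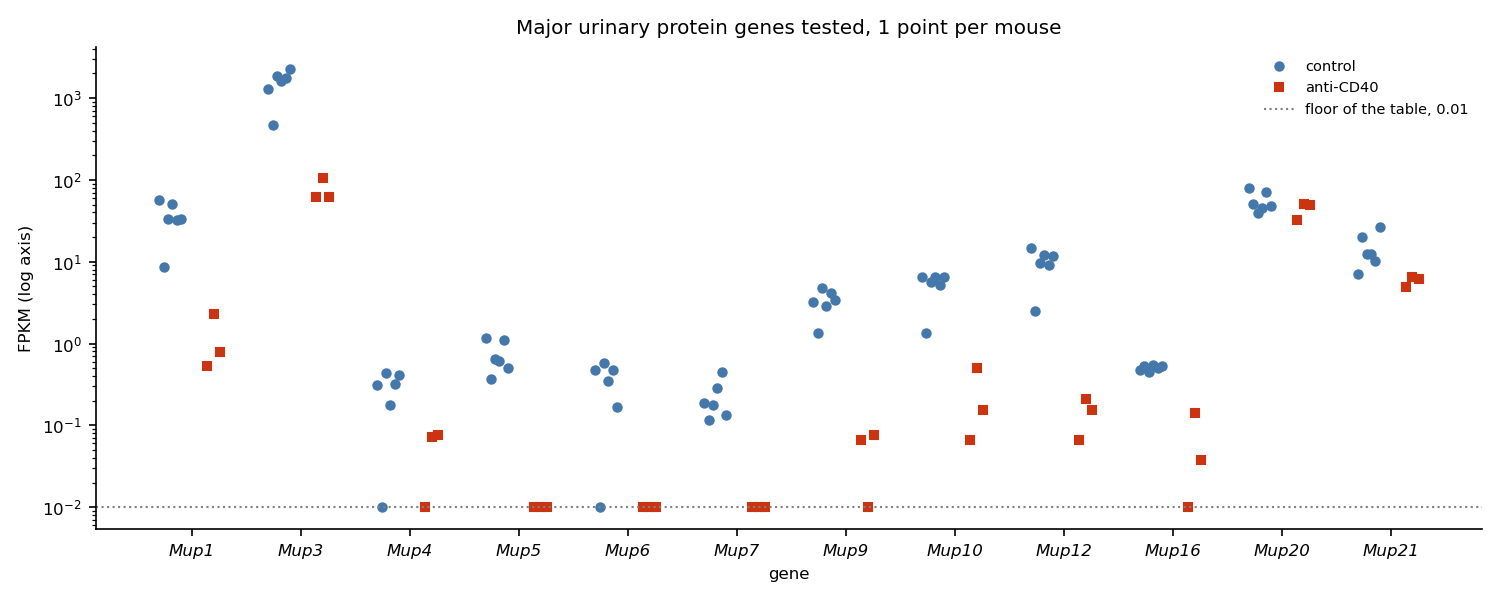
FPKM of the 12 Mup genes tested, on a log axis, with 1 point per mouse and a dotted line at the floor of 0.01. The groups overlap for Mup4, Mup6 and Mup20, whereas Mup3 and Mup12 lie far lower in the anti-CD40 mice, and Mup5, Mup6 and Mup7 are at the floor in all of them.

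Other constitutive plasma proteins fell in part and some rose. On a list of 35 outside the members, all tested, 22 were called lower, 3 higher and 10 were not called, with a median log2 difference of -0.61. Pon1, the paraoxonase carried on high density lipoprotein, was at 105, 116 and 153 FPKM in anti-CD40 mice 2, 5 and 9 and at 547 to 899 among the controls, a difference of -2.72 (SE 0.18, limma adjusted p = 2.49e-06). Igfals, the acid-labile subunit that holds IGF1 in the circulation, differed by -2.43 (SE 0.40, limma adjusted p = 7.13e-04), and the apolipoprotein gene Apoc1 by -2.28 (SE 0.14, limma adjusted p = 1.19e-06). Apob, the structural protein of low density lipoprotein, was at 17.8, 24.3 and 18.2 FPKM in anti-CD40 mice 2, 5 and 9, above every control (9.33 to 16.9), a difference of 0.74 (SE 0.20, limma adjusted p = 0.0132). Trf (0.70) and Cpb2 (0.74) were called higher as well, with groups that overlapped. The count of lower genes on this list was sensitive to scaling and filtering, at 12 after quantile normalization and 14 with the Saa genes left out or with no filter. The number of higher genes was 0 when values were scaled to reference genes and also when anti-CD40 mouse 5 was left out.

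Positive acute phase proteins went the other way. Of 23 on the list, 21 were called higher and 0 lower, with a median of 2.26. The largest differences were those of Saa3 (8.62, limma adjusted p = 6.29e-07), Saa2 (8.60, limma adjusted p = 7.69e-07) and Lcn2 (8.38, limma adjusted p = 5.50e-07). Hamp and Crp were not called. Of the summed FPKM, Saa1, Saa2 and Saa3 took 25.4% to 25.9% with anti-CD40 and 0.0449% to 0.380% in controls. The members' share moved opposite to it, at 1.14% to 1.50% with anti-CD40 and 2.64% to 5.32% in controls. With the Saa genes left out and each mouse rescaled to the same total, the median of all genes shifted to 0.35 and that of the members to -1.31, and 7 members were called lower.

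Genes that act with the carriers were lower too. On a list of 10 partners, 8 were called lower and 0 higher, with a median of -0.74. Hsd11b1, which regenerates active glucocorticoid inside the hepatocyte, was at 81.0, 71.0 and 103 FPKM in anti-CD40 mice 2, 5 and 9 and 378 to 572 among the controls, a difference of -2.49 (SE 0.16, limma adjusted p = 1.72e-06). The vitamin D 25-hydroxylases Cyp27a1 (-1.95, limma adjusted p = 1.44e-04) and Cyp2r1 (-1.77, limma adjusted p = 7.67e-06) were lower with groups that did not overlap. Nr3c1, the glucocorticoid receptor, differed by -0.49 (limma adjusted p = 0.0230), and Fcgrt, the receptor that rescues albumin from degradation, by -0.82 (limma adjusted p = 0.0260) with groups that overlapped. Dio1, the deiodinase of liver, was not called. Only 4 of the 10 were called lower with the Saa genes left out and rescaling, and 5 without anti-CD40 mouse 2.

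On a list of liver transcription factors, 5 of 16 were called lower, 1 higher and 10 were not called, beside 21.7% lower and 23.5% higher over all genes tested. Tef, a PAR bZIP factor, was at 6.98, 8.78 and 13.3 FPKM in anti-CD40 mice 2, 5 and 9 and at 18.0 to 83.2 among the controls, a difference of -2.19 (SE 0.44, limma adjusted p = 0.00222). Cebpa, which encodes C/EBP alpha, stood at 35.6, 40.6 and 40.2 FPKM against 77.3 to 178 among the controls and differed by -1.49 (SE 0.23, limma adjusted p = 4.89e-04). Hlf, another PAR bZIP factor, was lower without overlap (-0.92, limma adjusted p = 0.00120). Cebpd was higher, by 1.07 (SE 0.23, limma adjusted p = 0.00333), at a locus shared with 1 other gene in the table. Hnf4a (-0.44, limma adjusted p = 0.139) and Dbp (-1.15, limma adjusted p = 0.0807) were not called. Dbp lay near the floor, at 0.01, 0.132 and 0.121 FPKM in anti-CD40 mice 2, 5 and 9 and 0.088 to 0.658 among the controls. The 0.1 added to FPKM therefore shapes its difference, and it too shares a locus with another gene.

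On the list of growth hormone and STAT5 genes, 2 of 8 were called lower and 1 higher. Over all genes tested 21.7% were lower and 23.5% higher, so these counts are not read as a change of the pathway. With the Saa genes left out and rescaling, 1 was lower and 2 were higher. Ghr, the growth hormone receptor, was at 47.4, 48.4 and 54.6 FPKM in anti-CD40 mice 2, 5 and 9 and 134 to 182 among the controls, a difference of -1.68 (SE 0.12, limma adjusted p = 2.71e-06). Stat5b differed by -0.57 (SE 0.14, limma adjusted p = 0.00775), and Jak2, the kinase bound to the receptor, by 0.85 (SE 0.16, limma adjusted p = 0.00152). The other 5 genes, Socs2 and Cish among them, which STAT5 induces, were not called.

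**Figure D5:**
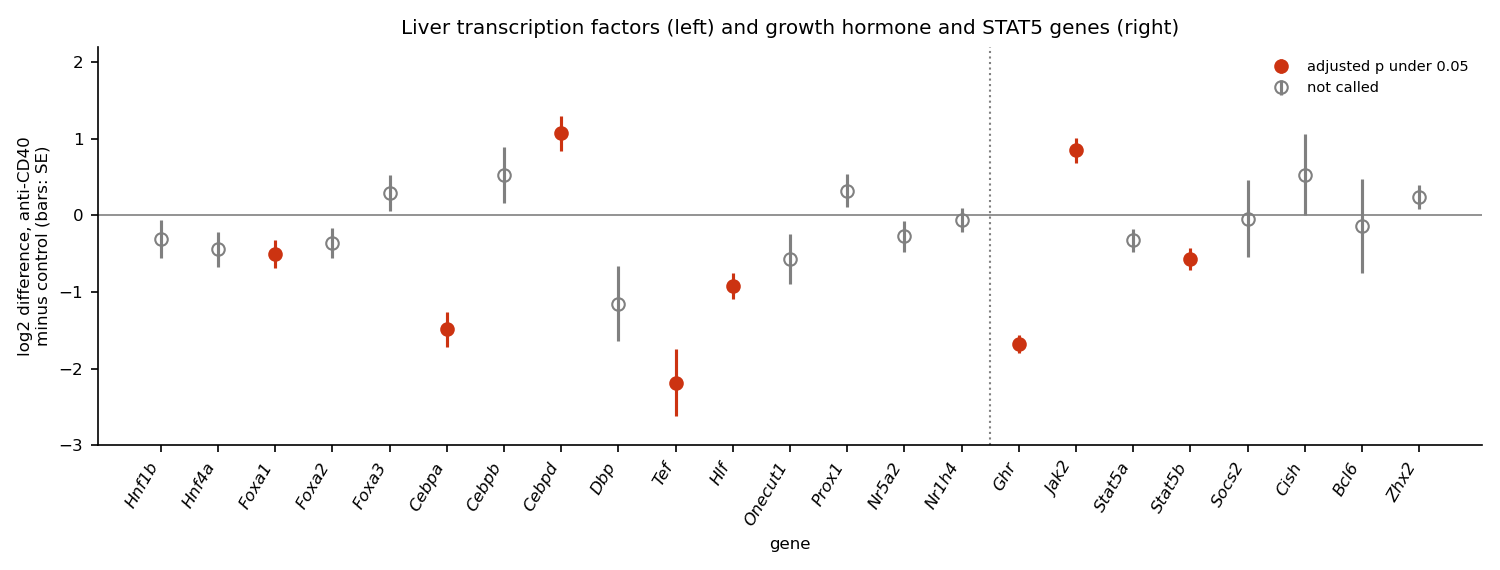
Log2 difference (anti-CD40 minus control) with SE bars for liver transcription factors and, right of the dotted line, 8 growth hormone and STAT5 genes. Tef at -2.19, Ghr at -1.68 and Cebpa at -1.49 are the lowest of the filled points, which mark an adjusted p under 0.05, and Cebpd and Jak2 are the filled points above 0.

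Other changes of the livers moved with the members. Of the 12 hepatocyte enzymes, 10 were called lower and 0 higher, with a median of -1.07, Cyp2e1 (-2.49) and Otc (-1.78) among them. Neutrophil and monocyte markers were higher in 9 of 9 tested, and their summed level was 4402 to 5453 FPKM with anti-CD40 against 38.7 to 202 in controls. Lymphocyte markers were higher in 9 of 10, at a summed 29.3 to 33.8 against 3.18 to 6.78 FPKM. Of 5 cholangiocyte markers tested, Sox9 (48.5 to 64.8 against 3.17 to 8.23 FPKM) and Spp1 (15.6 to 31.8 against 2.37 to 8.28 FPKM) were higher, while Krt19, Krt7 and Epcam were not called and had groups that overlapped. Endothelial markers (2 higher and 3 lower of 7, 85.7 to 93.9 against 96.4 to 120 FPKM) and stellate cell markers (4 higher and 2 lower of 7, 217 to 248 against 208 to 320 FPKM) moved both ways. Mpo, a defining neutrophil gene, did not pass the filter on low values. Markers of red cells (0 of 5 called, 4176 to 14317 against 7493 to 50525 FPKM, highest in control mouse 4) varied between mice. Those of pancreatic acinar cells (0 of 9 called, 27.6 to 880 against 70.4 to 190 FPKM) were highest in anti-CD40 mouse 5. In that mouse Cela3b was at 223 and Prss2 at 102 FPKM, against at most 0.597 and 0.582 in any other mouse. Cela1 alone was at 69.3 to 188 FPKM in controls. Of 11 reference genes 3 were higher and 1 lower. The part that a changed mix of cells had in the members' levels was not tested.

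Across all 9 mice, the genes most like the members were found by the Pearson correlation with the mean of the members' centred log2 values, over 10145 genes whose FPKM averaged 1 or more. They were Cd163 (r = 0.997), Cyp2c44 (r = 0.996, log2 difference -4.01), Prlr (r = 0.996, -2.48), Ehd3 (r = 0.995, -1.94) and Vkorc1 (r = 0.995, -1.39). Cd163 averaged 0.063 FPKM with anti-CD40, under the 0.1 added to FPKM, and 7.26 in controls, so no fold is given for it. The points are the same 9 libraries in 2 groups, so r mostly restates the difference between the groups, and 571 genes had an r of at least 0.95.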

How the data were processed

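Liver RNA of 9 mice was sequenced from the 3′ end with QuantSeq libraries. Per the study's methods and the submitters' processing notes, the authors aligned reads with STAR to mm10 and ran Cufflinks and CuffDiff. The deposited values are FPKM for 24341 genes, with a floor of 0.01. The annotation the authors used is not given in the sources used here, and 15 genes without an estimate in every mouse were dropped. Mice were grouped by their labels. The separate mice are the replicates.

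No scaling was added. Median ratios of the mice to their geometric mean were already near 1, from 1.004 to 1.010. The study's methods do not state whether the values had also been scaled between mice. Median ratios so alike, beside summed FPKM that differed between mice, are what such scaling gives. log2(FPKM + 0.1) was tested with limma 3.58.1 in R 4.3.3 (lmFit, eBayes with a trend, two-sided, treatment as the only factor) over the 13807 genes whose FPKM averaged 0.1 or more, with Benjamini-Hochberg adjustment over all of them at 0.05. Single members and the ratios between members, also computed with 0.1 added to FPKM, were tested with exact permutation over the 84 splits. Python 3.11.15, numpy 2.4.6, pandas 2.3.3 and matplotlib 3.10.9 did this and the rest.

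Members and gene lists were chosen with earlier results of these data known. Named genes are the members, the Mup genes, from each other list up to 3 largest falls and 3 largest rises among called genes without overlap, and the 5 genes most alike. Others (Trf, Cpb2, Hamp, Crp, Nr3c1, Fcgrt, Dio1, Hnf4a, Dbp, Socs2, Cish, Mpo, Krt19, Krt7, Epcam, Cela1, Cela3b, Prss2) were named after their values were seen. Some genes that the rule took, and a promoter motif planned at the start, are not reported here. Tf and Selenop were found in the table as Trf and Sepp1. The fit was tested on simulated data with 200 of 13807 genes changed, where it recovered 57% of those with a log2 size of 1 and 89% of those with 2 and made 3 false calls. Promoters came from RefSeq (GRCm38.p6), and transcript ends from GENCODE vM21. Alternatives were other pseudocounts, filters, scalings, limma settings, thresholds, each mouse left out, and, chosen after seeing the data, anti-CD40 mouse 5 and control mouse 4 left out together.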

Additional observations from a re-analysis of the deposited data

Results flagged for a closer look

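In 1 of 15 groups of control values examined (the 10 members and 5 ratios), a mouse stood apart from the rest of its group. The Ahsg level of control mouse 12, at 26548 FPKM, was separated from the next control mouse, at 14529 FPKM, by a share of 0.676 of the whole control range, above Dixon's 95% critical value for 6 mice. Chance flags about 1 in 20 such groups. Without control mouse 12, Ahsg was still called lower. The same mouse was the highest control for 7 of the 10 members.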

How the results depend on the processing

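Over 23 alternatives the members called lower numbered 7 to 9 and those called higher 0. The 7 arose at an adjusted p under 0.01, at a fold of at least 2, and with the Saa genes left out and rescaling. Alb, Ttr, Rbp4, Gc, Afm, Serpina6 and Mup3 kept their call under all 21 alternatives to the fit. Mup20 turned to 0.033 (adjusted p = 0.921) with the Saa genes left out and rescaling. The other plasma proteins called lower numbered 14 with no filter, 12 after quantile normalization and 14 with the Saa genes left out, against 22. With each mouse left out in turn, Fetub over Ahsg ran from -0.036 to 0.202 and was -0.036 without anti-CD40 mouse 2, -0.036 without anti-CD40 mouse 5 and -0.0092 without control mouse 8. Afm over Alb ran from -0.39 to -0.27, Gc over Alb from 1.54 to 1.75, Mup20 over Mup3 from 3.67 to 4.19 and Rbp4 over Ttr from 0.50 to 0.61. With an anti-CD40 mouse left out, the smallest exact permutation p is 0.0714, so these sets cannot pass 0.05. Of all genes called, 52.0% were higher in the test as reported, 77.4% with the Saa genes left out and rescaling, 46.4% after quantile normalization and 44.7% at a mean FPKM of at least 1. Rescaling without the Saa genes divided values by 0.836 to 0.856 in anti-CD40 mice and by 1.04 to 1.15 in control mice. Such division by itself raises the log2 differences of all genes. The cause of the other shifts was not tested. No paired analysis was possible because no mouse number occurs in both groups. Depth is unknown, which limits the genes near the floor, several Mup genes among them.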
